A study of Mus musculus with 10 samples.

Results

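Cd44, the main cell-surface receptor for the matrix polysaccharide hyaluronan, and 7 enzymes that make or cut hyaluronan were followed in cultured mouse mammary epithelium with and without added biglycan protein. The 8 genes were chosen by name, with earlier results of these data known. They were Cd44, the synthases Has1, Has2 and Has3, the hyaluronidases Hyal1 and Hyal2, and the hyaluronan-cutting proteins Cemip and Cemip2. All 8 were found among the 53167 gene symbols of the count table, all 8 had at least 1 count, and 7 had enough counts to be tested. The libraries came from primary epithelial cells of wild-type mouse mammary gland, grown in DMEM with serum, 5 samples with biglycan (BGN) at 100 ng/mL in the medium and 5 without it (Control). The labels give no age, sex, strain or duration of stimulation for either group, and do not say whether the replicates were separate animals or cultures, so the p-values below may reflect technical spread alone.

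Hyaluronan is a long unbranched sugar chain that HAS enzymes in the plasma membrane build from UDP-glucuronic acid and UDP-N-acetylglucosamine and push out of the cell. Cells read it mainly through CD44, which links it to the actin cytoskeleton through ezrin, radixin and moesin, and clear it by cutting the chain outside the cell and finishing the fragments in lysosomes. Both CD44 and hyaluronan are studied in breast epithelium for their part in adhesion and movement, and Cd44 is often listed among WNT target genes, which ties it to the pathway named in the design of the series.

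The libraries held between 18292624 and 21820560 counts each. The levels of marker genes went with the labelled cell type. Basal epithelial markers summed to between 5360 and 6624 CPM (counts scaled to a common total) and luminal epithelial markers to between 3756 and 4393 CPM. All 7 basal and all 7 luminal markers had a count, although basal Myh11 averaged only 0.201 CPM. Having a count did not set the cell types apart. It also held for 9 of 10 fibroblast, 7 of 7 endothelial, 5 of 5 adipocyte, 6 of 9 myeloid and 1 of 7 lymphocyte markers. Markers of other cells were low, at 40.6 to 59.8 CPM summed over 10 fibroblast markers, of which Pdgfra gave 38.7 CPM on average and Dpt none, 2.17 to 4.25 CPM over 9 myeloid markers with Adgre1, C1qa and C1qb at 0 counts, 4.93 to 6.45 CPM over 7 endothelial markers, at most 0.0516 CPM over 7 lymphocyte markers, and at most 0.592 CPM over 5 adipocyte markers. None of these sums, nor the library total or the mitochondrial share, passed a two-sided exact permutation test of BGN against Control. The smallest adjusted p of this test was 0.643 over 9 measures, and the smallest unadjusted p was 0.0873, for the mitochondrial share. With 5 libraries per group the unadjusted p cannot fall below 0.00794. A single measure could therefore not pass 0.05 after adjustment over 9 measures, even with the groups fully apart. Control replicate 5 stood apart with 1.16% of its reads on mitochondrial genes, against 1.80% to 2.27% in the other libraries.

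Cd44 and the hyaluronidase neighbours Hyal2 and Hyal1 are introduced by the 250 bases upstream of their RefSeq start, because Cd44 was the most abundant of the 8 genes and the other pair lie next to each other on chromosome 9 at unlike levels. The sequences are in the GRCm38.p6 build, read 5′ to 3′ on the gene's strand, at chr2:102901666-102901915 (minus strand) for Cd44, chr9:107568913-107569162 (plus strand) for Hyal2 and chr9:107576700-107576949 (plus strand) for Hyal1. Capitals mark the GC box GGGCGG on either strand.
Cd44: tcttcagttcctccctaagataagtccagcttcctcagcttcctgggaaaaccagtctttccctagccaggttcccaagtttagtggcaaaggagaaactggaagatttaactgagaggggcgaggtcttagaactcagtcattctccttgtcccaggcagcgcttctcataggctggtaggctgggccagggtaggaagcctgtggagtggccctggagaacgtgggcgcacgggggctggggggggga
Hyal2: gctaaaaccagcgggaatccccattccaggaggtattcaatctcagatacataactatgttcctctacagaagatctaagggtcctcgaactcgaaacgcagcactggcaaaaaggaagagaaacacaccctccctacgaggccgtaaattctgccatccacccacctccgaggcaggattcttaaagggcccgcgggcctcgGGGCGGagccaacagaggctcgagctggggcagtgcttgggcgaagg
Hyal1: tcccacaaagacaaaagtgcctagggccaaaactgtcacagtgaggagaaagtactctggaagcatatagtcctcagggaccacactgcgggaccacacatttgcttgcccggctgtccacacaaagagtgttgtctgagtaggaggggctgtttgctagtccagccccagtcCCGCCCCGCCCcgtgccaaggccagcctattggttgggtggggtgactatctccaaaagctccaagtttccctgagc
The GC box was found once for Hyal2 and in 2 overlapping copies for Hyal1, while the Cd44 window held none. Of 32851 upstream windows of this length, 32.7% held a match. The TCF sequences CTTTGAA or CTTTGAT or CTTTGTA or CTTTGTT, searched on both strands, were in none of the 3 windows, and 14.8% of all windows held at least 1. These windows held 5 CpG dinucleotides for Cd44, 13 for Hyal2 and 5 for Hyal1, against a median of 6 over all windows. Windows were matched for 5 of the 8 genes, Cd44, Has1, Hyal1, Hyal2 and Cemip.

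The 8 genes covered a wide range of levels. Per kilobase of exonic sequence in GENCODE M21, which corrects for gene length, Cd44 led at 96.2 ± 4.86 CPM per kb (SD over 10 libraries, as for the levels that follow), and Has2 came next at 30.5 ± 1.89. Cemip2 and Hyal2 followed at 14.5 ± 0.780 and 13.1 ± 0.559 CPM per kb, and Hyal1 at 3.10 ± 0.343. The other 3 genes were close to the limit of detection at this depth, with Has3 at 0.127 ± 0.0357, Cemip at 0.115 ± 0.0228 and Has1 at 0.0261 ± 0.0227 CPM per kb. Cd44 exceeded Has2 by 2.87 to 3.49 times per library, and Has2 exceeded Cemip2 by 1.77 to 2.27 times. Cemip2 and Hyal2 overlapped in range, although Cemip2 was above Hyal2 within each of the 10 libraries, by 1.00 to 1.27 times. Has3 and Cemip could not be ordered, as Has3 was the higher in 5 of 10 libraries. With the mean transcript length in place of exonic length, Has2 moved from the second to the fourth rank, at 30.5 CPM per kb against 31.6 for Cemip2 and 30.7 for Hyal2. The upper part of this order therefore depends on the length used, apart from Cd44, which was first under each of the 4 length definitions tried. For Cd44 the length without shared bases is the same as the exonic length, so that definition adds no check on it.

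**Figure D1:**
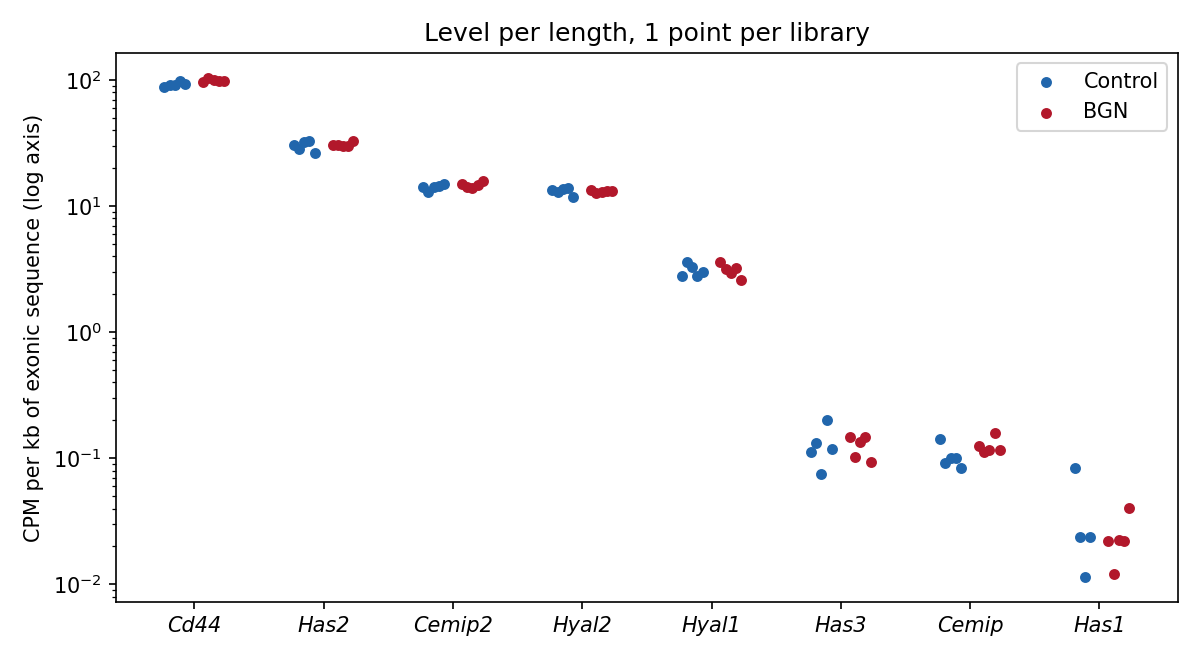
Level of each gene in CPM per kilobase of exonic sequence on a log axis, with 1 point per library, Control in blue and BGN in red. Cd44 lies near 96 CPM per kb and Has3, Cemip and Has1 lie far below the other genes. The Control library with 0 Has1 counts is not drawn.

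CD44 is the receptor, and its transcript was the gene of this set with the smallest p. In CPM scaled by TMM factors, which correct for differences in library composition, Cd44 stood at 657.1, 706.3, 676.5, 674.1 and 672.3 in BGN replicates 1 to 5, and at 601.0, 619.9, 622.6, 664.6 and 626.8 in Control replicates 1 to 5. The 4 BGN libraries other than replicate 1 were above the highest Control library, replicate 4, and the 4 Control libraries other than replicate 4 were below the lowest BGN library, so the groups overlapped by that pair alone. The means were 677 ± 17.9 CPM and 627 ± 23.2 CPM (SD, n = 5 each). On the log2 scale the fold change of BGN over Control was 0.11 ± 0.038 (SE), with a 95% interval from 0.032 to 0.19, or 8.02% higher in BGN with an interval from 2.24% to 14.1%. This did not pass: the adjusted p was 0.945 and the unadjusted p 0.00812 by edgeR's quasi-likelihood test, the 90th smallest of 14415. Of all tested genes 4.81% had an unadjusted p under 0.05, against 1 of the 7 tested members, and 0% passed the adjusted threshold of 0.05. DESeq2 and limma-voom also called 0 of these genes. Counting error was small beside the spread between libraries, at 0.883% of the mean against 2.64% in BGN and 3.70% in Control. The counts are summed over the gene, for which the annotation lists 9 transcripts, so standard and variant-exon forms of Cd44 are not told apart. In bulk samples, a different number of cells of a type and a different amount of RNA per cell cannot be told apart either.

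**Figure D2:**
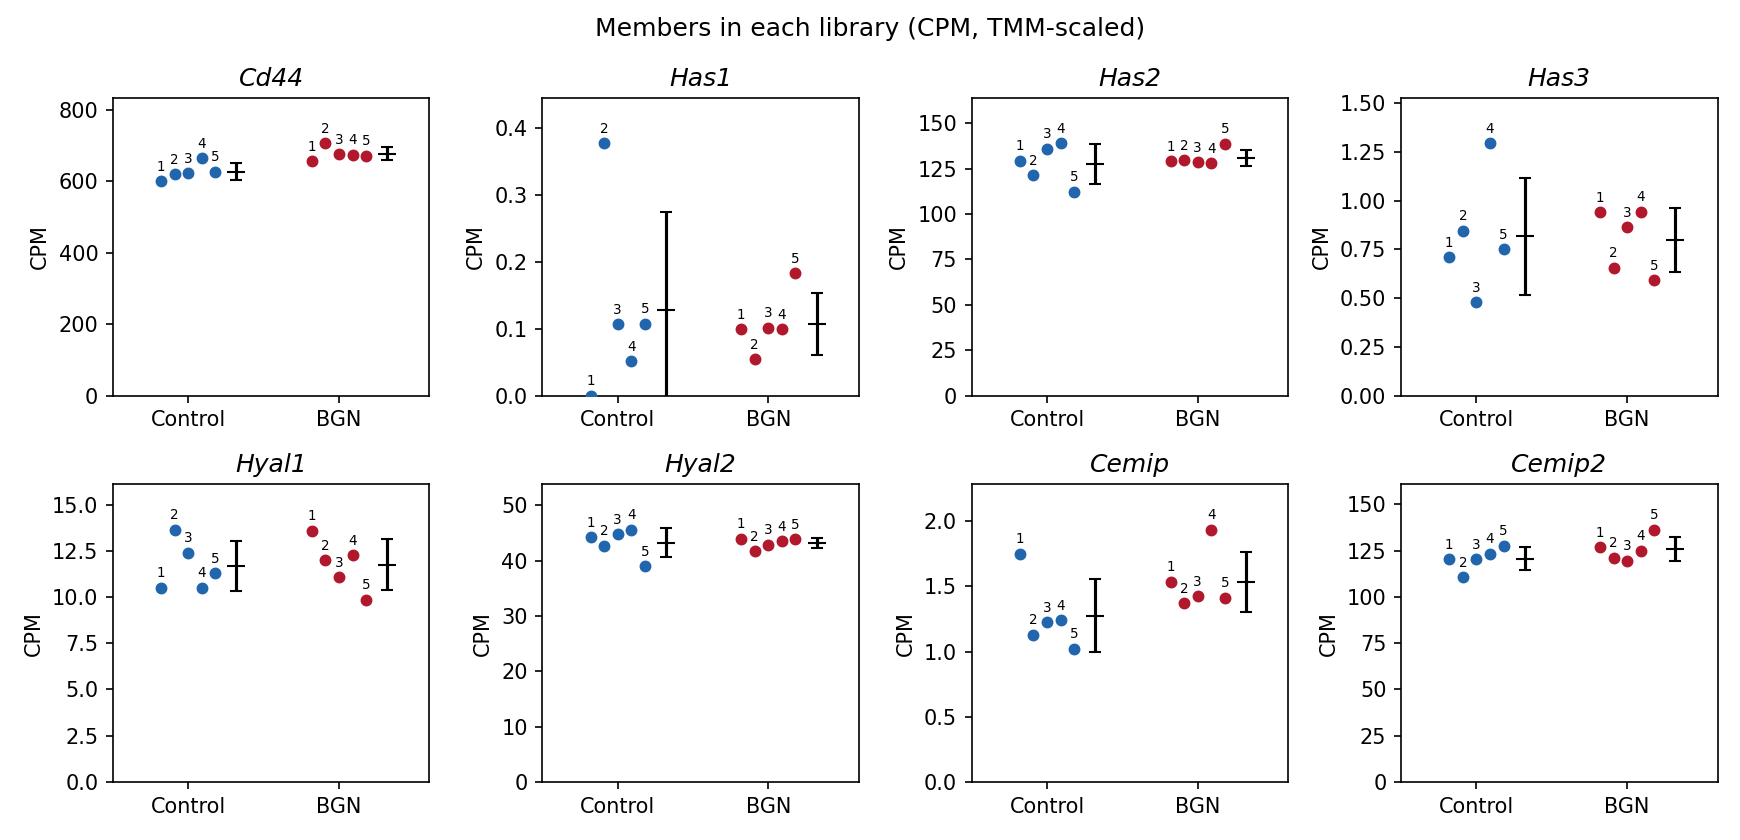
CPM of each of the 8 genes in the 5 Control (blue) and 5 BGN (red) libraries, with the replicate number above each point and the mean ± SD as a black bar. For Cd44, 4 of 5 BGN libraries lie above the highest Control library, and for both Cd44 and Cemip 4 of 5 Control libraries lie below the lowest BGN library.

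Has2, the synthase that makes most hyaluronan in many tissues, provided nearly all synthase transcript. It made up 99.5 ± 0.0861% of the summed Has level per kilobase in BGN and 99.5 ± 0.186% in Control. Its CPM was 129.2, 129.7, 128.4, 128.0 and 138.6 in BGN replicates 1 to 5 and 129.4, 121.4, 135.8, 138.8 and 112.2 in Control replicates 1 to 5. The BGN libraries sat together except replicate 5, and all lay within the Control range. The log2 fold change was 0.037 ± 0.050 (SE, 95% interval -0.068 to 0.14, adjusted p = 0.977 by edgeR), and it turned to -0.0053 without Control replicate 5, the lowest of the 10 libraries. Exons of the antisense RNA Has2os cover 4.30% of the Has2 exonic bases, and Has2os itself was at 1.12 ± 0.149 and 1.49 ± 0.384 CPM in BGN and Control.

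The other synthases were rare. Has3, which makes shorter chains, had 12 to 19 counts in the BGN libraries and 9 to 25 in the Control libraries. This is 0.800 ± 0.164 and 0.816 ± 0.299 CPM. The log2 fold change was -0.036 (adjusted p = 0.994 by edgeR), and the 95% interval ran from 35.3% lower to 47.1% higher, so a smaller difference was not detectable at this depth. The sign of this estimate turned without Control replicate 4, at 0.19, and without BGN replicate 2 or 5, at 0.023 and 0.062. The spread of 20.6% and 36.6% of the mean lay around the 25.1% that counting alone gives. Exons of Chtf8 on the opposite strand, a gene at 11.8 ± 1.12 and 12.5 ± 0.328 CPM, cover 5.52% of the Has3 exonic bases, and the strand setting of the counting is not given. Has1 had 24 counts over all 10 libraries, 2, 1, 2, 2 and 4 in BGN and 0, 8, 2, 1 and 2 in Control, and was not tested.

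The hyaluronidases did not separate the groups. HYAL2, anchored at the cell surface, cuts long chains into intermediate fragments, and its gene was at 43.9, 41.7, 42.9, 43.5 and 43.8 CPM in BGN replicates 1 to 5 and at 44.2, 42.7, 44.8, 45.6 and 39.0 CPM in Control replicates 1 to 5. All 5 BGN libraries lay inside the Control range. The log2 fold change of Hyal2 was -0.0028 ± 0.052 (SE, 95% interval -0.11 to 0.10, adjusted p = 0.996 by edgeR). HYAL1, which degrades fragments in lysosomes, had its transcript at 13.6, 12.0, 11.1, 12.3 and 9.84 CPM in BGN and 10.5, 13.6, 12.4, 10.5 and 11.3 CPM in Control, again fully mixed. Its log2 fold change was 0.0069 ± 0.098 (95% interval -0.20 to 0.21, adjusted p = 0.996 by edgeR). Both signs turned when single libraries were left out. Hyal2 exceeded Hyal1 per kilobase by 4.26 ± 0.539 times in BGN and 4.30 ± 0.589 times in Control. That ratio rests on the length used for Hyal1, as 51.9% of its exonic bases also belong to Naa80 or Hyal3 on the same strand. Dividing the same Hyal1 CPM by the unshared bases alone gave 6.45 rather than 3.10 CPM per kb. That value would hold only if reads in shared exons were left uncounted, and the overlap mode of the counting is not given. Hyal1 and Naa80, which was at 15.4 ± 1.32 and 15.5 ± 1.38 CPM, are therefore uncertain where reads fall in shared exons.

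Cemip and Cemip2 encode related proteins that have been linked to cleavage of hyaluronan outside lysosomes, CEMIP2 as a transmembrane protein. Cemip2 was at 126.8, 121.2, 119.5, 124.9 and 136.4 CPM in BGN replicates 1 to 5 and at 120.5, 110.8, 120.4, 123.3 and 127.7 CPM in Control replicates 1 to 5. BGN replicate 5 was above every Control library and Control replicate 2 below every BGN library, with the rest mixed. The log2 fold change was 0.062 ± 0.046 (SE, 95% interval -0.033 to 0.16, adjusted p = 0.957 by edgeR), 0.032 without BGN replicate 5 and 0.033 without Control replicate 2. Cemip had 25 to 39 counts in BGN and 19 to 32 in Control, or 1.54 ± 0.232 and 1.27 ± 0.280 CPM. Its 4 lowest Control libraries were below the lowest BGN library, while Control replicate 1, at 1.75 CPM, exceeded 4 of the 5 BGN libraries. The log2 fold change was 0.27 ± 0.22 (SE, 95% interval -0.17 to 0.72, adjusted p = 0.963 by edgeR), and the interval allows anything from 11.2% lower to 64.6% higher. Without Control replicate 1 it was 0.41, and without BGN replicate 4 it was 0.18.

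Across the 7 tested members, 0 passed in either direction by edgeR, with 5 estimates above and 2 below 0 and a median log2 fold change of 0.037, beside -0.0040 over all 14415 tested genes. Of all tested genes 6921 had an estimate above and 7494 below 0. No member had groups free of overlap, which was so for 0.728% of tested genes. The 95% interval lay within 1.5-fold either way for 5 members, Cd44, Has2, Hyal1, Hyal2 and Cemip2. The share over all tested genes is not given here.

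Companion genes of the pathway were taken from 5 lists, in which Nagk alone had an unadjusted p under 0.05 by edgeR. Of all tested genes 4.81% had such a p. No enzyme that supplies the sugar nucleotides was called. All 9 listed genes were tested, with 5 estimates above and 4 below 0, a median of 0.0073 and 0 calls. Ugp2, which makes UDP-glucose, had 197 ± 11.2 CPM (BGN) and 196 ± 9.59 CPM (Control), and Gfpt1, the entry enzyme of the hexosamine pathway, at 117 ± 6.84 and 113 ± 5.31 CPM. Uap1, which forms UDP-N-acetylglucosamine, was at 49.7 ± 2.15 and 51.8 ± 2.67 CPM. Nagk, which salvages N-acetylglucosamine, was at 25.6 ± 1.57 and 28.6 ± 2.68 CPM, with overlapping groups and a log2 fold change of -0.16 (unadjusted p = 0.0282, adjusted p = 0.945 by edgeR). Of the other hyaluronidases and lysosomal exoglycosidases 4 of 8 were tested, 2 above and 2 below 0 (median -0.021, 0 calls). The sperm hyaluronidase genes Hyal5 and Spam1 had 0 counts. Hexa, a lysosomal exoglycosidase gene, averaged 40.7 ± 3.97 CPM (BGN) and 44.9 ± 5.27 CPM (Control). Gusb, the beta-glucuronidase gene, was at 55.3 ± 2.15 and 57.0 ± 2.89 CPM.

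Other receptors and binding proteins were also without a call. Of 7 further hyaluronan receptors 6 were tested, 4 above and 2 below 0 (median 0.0055). Hmmr, the hyaluronan-mediated motility receptor and a cell-cycle gene, was at 127 ± 10.1 and 128 ± 17.9 CPM, and Lyve1, the lymphatic vessel receptor, at 0.899 ± 0.303 and 0.759 ± 0.298 CPM. Tlr2 and Tlr4, innate immune receptors that sense matrix fragments, had log2 fold changes of 0.0034 and 0.089. Of 17 hyaluronan-binding matrix proteins 6 were tested, 4 above and 2 below 0 (median 0.099). Ptx3, a pentraxin of hyaluronan-rich matrix, was at 189 ± 4.52 and 196 ± 4.71 CPM, and Vcan, the versican gene, at 144 ± 12.1 and 136 ± 11.0 CPM. Itih2, an inter-alpha-trypsin inhibitor heavy chain that becomes attached to hyaluronan, ran from 4.68 to 5.51 CPM in BGN and from 4.10 to 4.61 CPM in Control. These ranges did not overlap, as was so for 0.728% of all tested genes and for no other tested gene of the 5 lists. Itih2 was named as 1 of the 2 genes of smallest p in its list. Its log2 fold change was 0.21 ± 0.11 (SE, unadjusted p = 0.0827, adjusted p = 0.945 by edgeR). Acan, the aggrecan gene, was at 1.48 ± 0.303 and 1.13 ± 0.329 CPM, with a log2 fold change of 0.39 (95% interval -0.10 to 0.88).

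Among genes that act with CD44 there was no call either. Of 18 listed symbols 17 were found in the count table, Nherf1 being absent, and 16 were tested, Srgn being left out. These 16 had 12 estimates above and 4 below 0, with a median of 0.013 and 0 calls. Over all tested genes 6921 estimates were above and 7494 below 0. The 95% interval lay within 1.5-fold for all 16, and the share over all tested genes is not given here. Spp1, which encodes the CD44 ligand osteopontin, averaged 1411 ± 106 CPM (BGN) and 1333 ± 171 CPM (Control). Ezr, the ezrin gene, was at 804 ± 14.1 and 811 ± 22.1 CPM, and Slc9a3r1, whose product binds ezrin, at 138 ± 8.21 and 143 ± 4.79 CPM. Esrp1, an epithelial splicing factor that favours variant exons of Cd44, was at 338 ± 6.77 and 328 ± 8.65 CPM. Each had an adjusted p of at least 0.965 by edgeR.

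**Figure D3:**
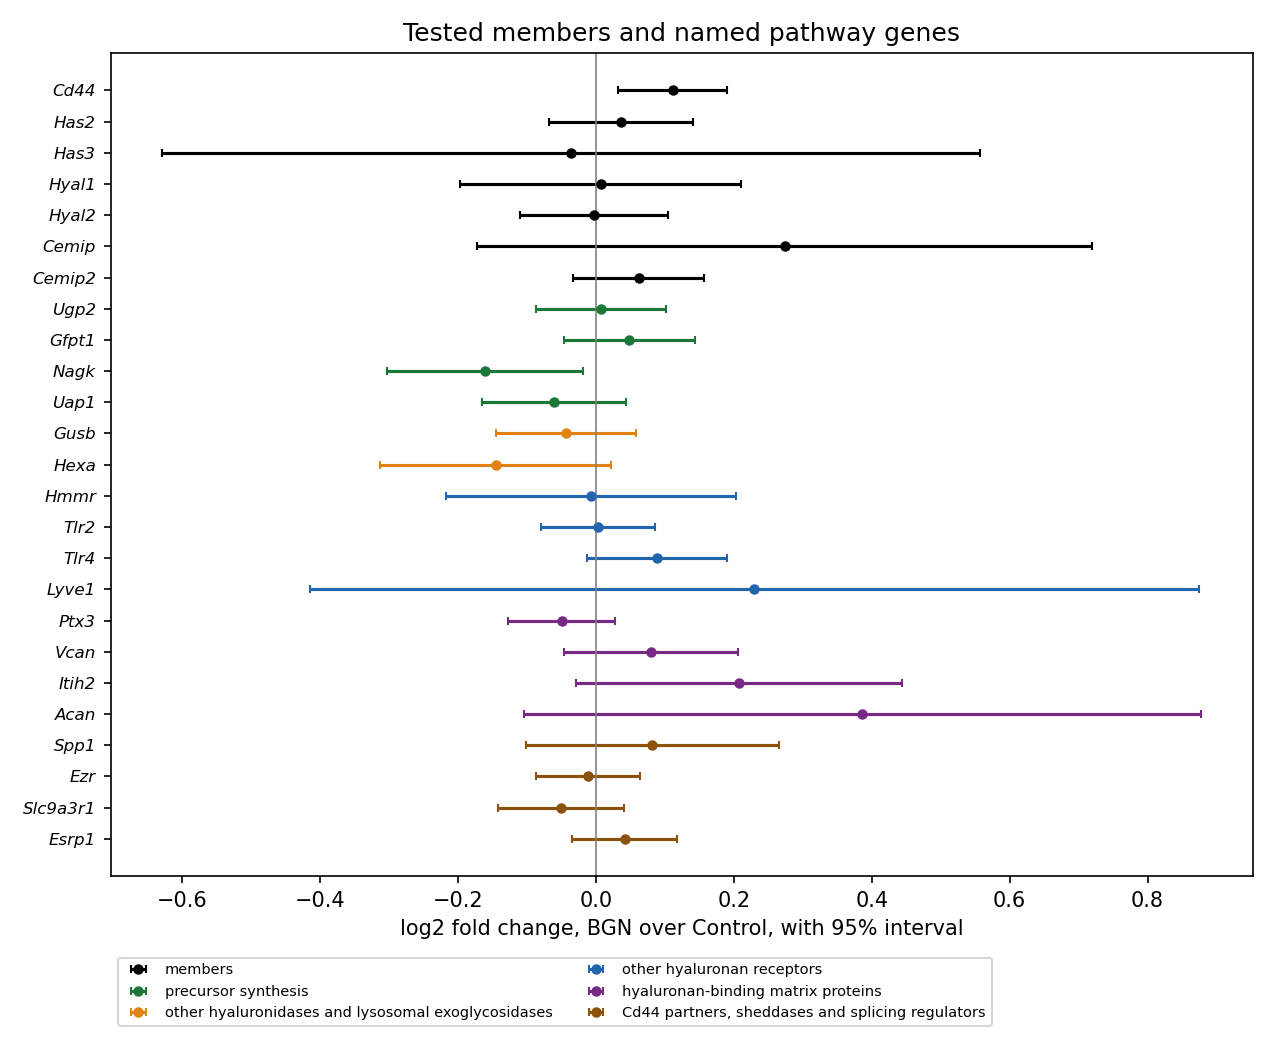
Log2 fold change of BGN over Control with its 95% interval for the 7 tested members (black) and for 18 pathway genes coloured by list. The intervals of Cd44 and Nagk leave out 0 before adjustment, and those of Has3, Cemip, Lyve1 and Acan are the widest.

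The genes whose log2 CPM most resembled each abundant member over the 10 libraries were sought among 11964 genes that averaged 50 counts or more, as a description with no test, since they were picked for this likeness and the libraries share composition and treatment. For Cd44 they were Slit2 (Pearson r = 0.96, Spearman correlation 0.92), a secreted ROBO ligand, Celf2 (0.95 and 0.88), an RNA-binding protein gene, and Arhgap42 (0.93 and 0.82), a GTPase-activating protein gene. Both groups enter this likeness: Arhgap42, like Cd44, averaged more in BGN, at 391 ± 7.08 against 366 ± 17.8 CPM, and Slit2 had 53.0 ± 1.70 against 44.7 ± 2.87 CPM. Slit2 had the smallest p of all tested genes, but neither gene passed (adjusted p = 0.883 for Slit2 and 0.945 for Arhgap42 by edgeR). Likeness within each group was not examined. For Has2 they were Serpinb9 (r = 0.98), Lurap1l (0.97) and Mrps33 (0.95). For Hyal2 they were Cdc42 (0.95), Parp8 (0.94) and Mapre1 (0.94), for Hyal1 Flcn (0.91), Pdgfc (0.90) and Sbf2 (0.90), and for Cemip2 Adgrb1 (0.95), Olfml3 (0.93) and Rflnb (0.93). Without replicate 5 of both groups, 1 of the 3 genes named for Cd44 was still among its first 3 and 0 of 3 for each of the other members. Ranked by Spearman correlation instead, 0 of 3 stayed among the first 3 for Cd44 and Cemip2 and 1 of 3 for Has2, Hyal1 and Hyal2, so the names depend on the measure and the libraries.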

How the data were processed

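The values deposited by the authors are raw read counts for each gene symbol and sample. Per the submitters' processing notes the tools were HISAT2 2.2.1, HTSeq, cutadapt 1.9.1, FastQC and DESeq2, on the build GRCm39, and the labels' protocols name TRIzol extraction, poly-A selection and the NEBNext Ultra kit. Not given in the sources used here are the annotation release and the strand setting and overlap mode of the counting. Groups and replicate numbers came from sample titles. All 10 libraries differed by more than sampling noise (chi-square per degree of freedom 2.43 to 18.1 within groups and 3.66 to 20.8 between groups) and were kept. Control replicate 5 was the most distant, at 11.5 or more against every other library. Pairs without replicate 5 of either group reached at most 9.36.

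The test was the robust quasi-likelihood test of edgeR 4.0.16 in R 4.3.3, after filterByExpr and TMM scaling, on treatment alone and with Benjamini-Hochberg adjustment over 14415 genes. SE and intervals came from the fold change and its F statistic. Marker sums were scaled by library totals. Lengths and overlaps came from GENCODE M21 (GRCm38, another build, used by symbol) and upstream sequences from RefSeq. The edgeR fit was tested on simulated data. Alternatives used DESeq2 1.42.0, limma 3.58.1, other scalings and filters, the replicate block and left-out libraries. The members and gene lists were chosen with earlier results of these data known. Named genes were the 8 members, from each list the 2 highest and the 2 of smallest p, and the 3 genes most like each member, of which 1 is not reported here; Has2os, Naa80 and Chtf8 were added as overlapping genes after the values were seen.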

Additional observations from a re-analysis of the deposited data

Results flagged for a closer look

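Samples far from the others of their group were sought for the 8 genes in both groups. Of these 16 sets of 5 libraries, 2 held such a sample, and chance gives about 1 in 20. Has2 in BGN replicate 5 was at 138.6 CPM, against 128.0 to 129.7 CPM in the other 4 BGN libraries, and it stayed below the highest Control library. Has1 in Control replicate 2 was at 0.3763 CPM, which is 8 counts, against 0 to 0.1075 CPM in the other 4 Control libraries.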

How the results depend on the processing

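Under the 20 alternative fits 0 tested members were called (Has3 was not tested with the stricter filter), and the estimate for Cd44 kept its direction in all of them, between 0.0961 and 0.133 on the log2 scale with unadjusted p from 0.00154 to 0.0282 and adjusted p from 0.680 to 1.00. Without the filter on low counts 1 gene was called higher and 2 lower (26531 genes tested, smallest adjusted p = 0.0145), none of them a member. Cemip and Cemip2 also kept their sign. Estimates close to 0 changed sign in 16 of 139 recomputed values. Without single libraries Has2 ran from -0.0053 to 0.0688, Has3 from -0.175 to 0.188, Hyal1 from -0.0510 to 0.0721 and Hyal2 from -0.0369 to 0.0165. With replicate 5 of both groups left out Has2 was at -0.0265 and Has3 at 0.0332, and Has3 was at 0.115 by limma-voom. With the replicate block 0 genes were called and Cd44 was at 0.112. The labels name no batch, so the numbers were not taken as pairs in the main fit. Same-numbered libraries had correlations of -0.0306 to 0.274 between their deviations, and only BGN replicate 2 matched its own number best. BGN replicates 1, 2 and 3 all matched Control replicate 2 best. With 5 libraries per group this check cannot settle whether the numbers were pairs. Rank by level per length moved for 5 genes with other lengths. The length without shared bases was chosen after seeing the data. It differs from the exonic length for Hyal1 alone and moved no rank. Depth limits Has1, Has3 and Cemip.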
